A study of Homo sapiens with 12 samples.

Results

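The 81 well measured ZNF genes of MCF10A cells were followed over the free, monoribosomal (mono) and polyribosomal (poly) fractions of a sucrose gradient. ZNF is the symbol root given to zinc finger genes. Of 551 genes with a symbol made of ZNF and a number, the 81 had a mean expected count of at least 500 over the 12 libraries. The expected count is RSEM's estimate of how many sequenced fragments came from a gene. The other 470 were below that minimum, and 91 of them had 0 counts in every library. The members were thus chosen by their mean count over all 12 libraries, those of the tests below included, so their high level is a description.

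MCF10A is a non-tumorigenic human mammary epithelial line. Wild type (WT) cells were compared with CBFB_KO cells, the same line after deletion of CBFB by CRISPR-Cas9. All cells were held in cycloheximide, which stops elongating ribosomes on the mRNA, and RNA from the free, mono and poly fractions was sequenced, with 2 libraries in each of the 6 groups. The labels do not say whether replicates came from separate cultures, and the study's knockout cells were picked as colonies grown from single cells, with the number of colonies behind these libraries not given in the sources used here. The p-values cover only the spread between these libraries.

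Most ZNF proteins carry C2H2 zinc fingers, small folds in which a pair of cysteines and a pair of histidines hold a zinc ion and which read a short stretch of DNA, or in some members RNA. Many also carry a KRAB domain, which recruits TRIM28 and other corepressors that silence chromatin. An mRNA with several ribosomes sediments in the poly fraction, one with a single ribosome in the mono fraction, and RNA without ribosomes stays in the free fraction.

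The well measured ZNF genes differed from the rest of the ZNF genes in base composition, a trait that the rule did not use. The GC content of the longest coding transcript had a median of 61.0% in the 80 members with one and of 42.4% in the 423 other ZNF genes with one. It was at or above 50% in 70 members (87.5%) and in 54 of the others (12.8%). The same split over all protein-coding genes was smaller, with a median of 54.9% in the 5955 genes at or above the minimum and 47.7% in the 13097 below it.

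The bases of the linker between neighboring fingers are shown because they code for nearly the same amino acids in genes at both ends of this range. Each stretch runs from the last histidine codon of a finger to the next cysteine codon, and capitals mark the last base of each codon. The members are the 3 of highest and the 3 of lowest GC content that have such a linker, with GRCh38 coordinates and GENCODE 29 coding sequence.
ZNF865, chr19:55614732-55614758, plus strand: caCacGggCgaGaaGccCttCtcCtgC
ZNF771, chr16:30417666-30417692, plus strand: caCacGggCgaAcgGccCttCggGtgC
ZNF628, chr19:55481365-55481391, plus strand: caCacAggCgaGcgGccCtaCaaGtgC
ZNF664, chr12:124012469-124012495, plus strand: caTacAggTgaGaaAccGtaTgtCtgT
ZNF595, chr4:86003-86029, plus strand: caTacTggAgaGaaAccCttTaaAtgT
ZNF695, chr1:246987957-246987983, minus strand: caTacTggAgaAaaAccAttCaaAtgC

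Of the 9 codons, ZNF865 ended 9 in G or C, and ZNF771 and ZNF628 ended 8. The linkers of the AT-rich members ended 3 codons in G or C in ZNF664 and 2 each in ZNF595 and ZNF695. Over all 166 such linkers in 46 members, 71.5% of the last codon bases were G or C. Over 2337 linkers in 370 of the other ZNF genes the share was 37.0%.

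**Figure D1:**
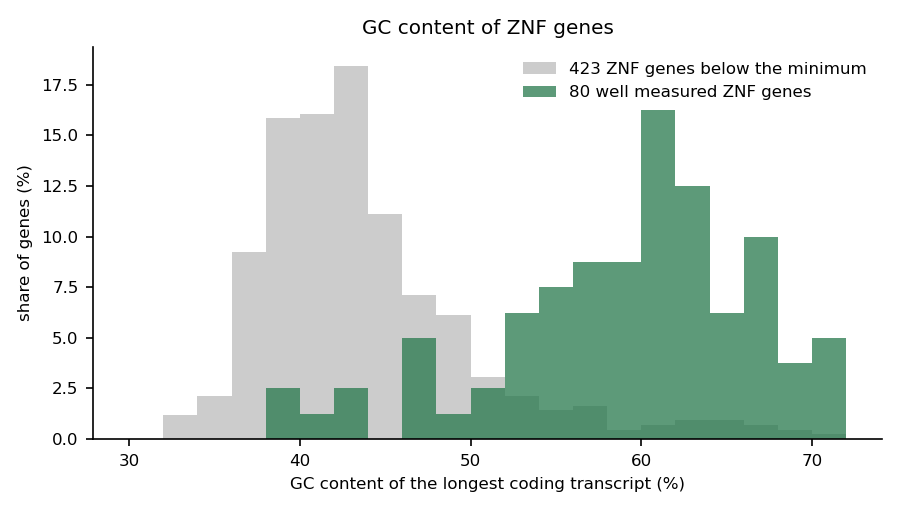
GC content (%) of the longest coding transcript on the horizontal axis against the share of genes (%) in bins of 2 percentage points, for 80 well measured ZNF genes (green) and 423 ZNF genes below the minimum (grey). The medians were 61.0% and 42.4%, and the histograms overlap between about 38% and 71%.

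The members also differed in their domains and positions. A KRAB motif (at least 9 of 12 conserved positions) was found in 19 of the 80 members (23.8%) and in 296 of the 423 other ZNF genes (70.0%), and a divergent KRAB domain would be missed by this match. The median number of C2H2 fingers was 7 in members, with a range of 0 to 31, and 11 in the others. Chromosome 19, which holds large clusters of KRAB genes, carried 20 members (25%) and 226 of the others (53.4%), and chromosome 16 carried 16 members (20.0%) and 14 of the others (3.31%). Of the members, 80 were protein coding and ZNF271P was a transcribed pseudogene.

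Per transcript length, ZNF511 was the highest member, with a mean of 128 TPM over all 12 libraries. ZNF706 followed with 72.0 TPM, ZNF219 with 38.8 TPM, ZNF581 with 32.9 TPM and ZNF692 with 32.3 TPM. The order changed with the group: ZNF581 at 57.0 TPM was above ZNF219 at 36.7 TPM in WT poly, and in CBFB_KO free ZNF580 was highest at 27.5 TPM. ZNF511 shared 24.4% of its 30-base words with the readthrough gene ZNF511-PRAP1, so its reads may be split between both. Just inside the minimum lay ZNF324 with a mean of 509 counts and ZNF764 with 514, and just outside lay ZNF618 with 474 and ZNF185 with 466. Without the WT poly libraries 7 members would be below the minimum, without WT free 6, without CBFB_KO poly 3, without CBFB_KO mono 1 and without CBFB_KO free or WT mono 0.

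The libraries held 41050325 to 63886726 expected counts. Transcripts of the mitochondrial genome took 71.6% and 87.2% of the CBFB_KO free libraries, 11.1% and 20.8% of the WT free libraries and at most 8.08% of the others. The median member count was 311 and 58.5 in the free libraries of CBFB_KO, against at least 577 elsewhere, so values of the CBFB_KO free fraction, above all replicate 2, carry the most counting error. The CBFB_KO poly libraries were nearly alike, with a mean chi-square per gene of 2.21 against 119 to 902 in the other pairs. In members the mean of this pair was 1.37. The main fit takes the pair as 2 libraries, so its small difference enters the spread behind every SE and adjusted p. Should both come from 1 sample, that spread would be too small. Tests with this pair as 1 sample are given for some counts only. Calls in free, that of ZNF467 among them, and in mono over free in CBFB_KO also moved in that setting. CBFB mRNA was at 5.37 and 12.6 CPM in WT free and 11.3 and 14.1 in CBFB_KO free. In mono it was at 8.03 and 6.20 CPM in WT and 4.79 and 3.89 in CBFB_KO. In poly it was at 5.72 and 6.84 CPM in WT and 3.59 and 4.01 in CBFB_KO. It was thus lower in CBFB_KO mono and poly with no overlap. The level of CBFB mRNA did not pass the test in any fraction (log2 fold change in poly -0.72 ± 0.43 SE, adjusted p = 1). A CRISPR lesion need not remove the mRNA, so this does not check the label. Of the basal markers, KRT5 and KRT17 were at least 402 and 78.2 CPM in every library, while KRT14 went down to 1.42 and TP63 to 1.04. Of the luminal markers, KRT18 was at 64.4 CPM or more in every library, FOXA1 reached 29.7 and ESR1 2.53, while PGR was at 0 in all 12. Of the markers of other cell types, COL1A2, LUM, PTPRC and CDH5 were also at 0 in all 12. The fibroblast marker COL1A1 was at 0.538 to 5.90 CPM and the leukocyte marker CD68 at 1.84 to 11.5 CPM in every library. CD3E reached 0.101 CPM and VWF 0.211 CPM.

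The comparison of CBFB_KO with WT within the free fraction asks which RNAs changed where no ribosome is bound. Of the 81 members, 8 were higher and 30 lower in CBFB_KO at an adjusted p under 0.05 (edgeR). Over all 16275 genes tested 24.2% were higher and 18.1% lower. Among the 6264 genes with the same minimum count, 18.4% were higher and 35.1% lower, so the members' 37.0% lower lay near that of other well measured genes, and their 9.88% higher was below it. The median log2 fold change was -1.31 in members, -0.82 in all genes at the minimum and 0.04 in all genes tested. Without CBFB_KO replicate 2, 5 members were higher and 0 lower, and a fit on the 4 free libraries alone gave 3 higher and 1 lower. With library sizes not corrected by TMM, 2 were higher and 59 lower, while the median of all genes moved to -1.57. Both CBFB_KO free libraries lay above both WT free libraries in 13 members and below them in 44, where 37.4% and 31.5% of all genes did so.

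**Figure D2:**
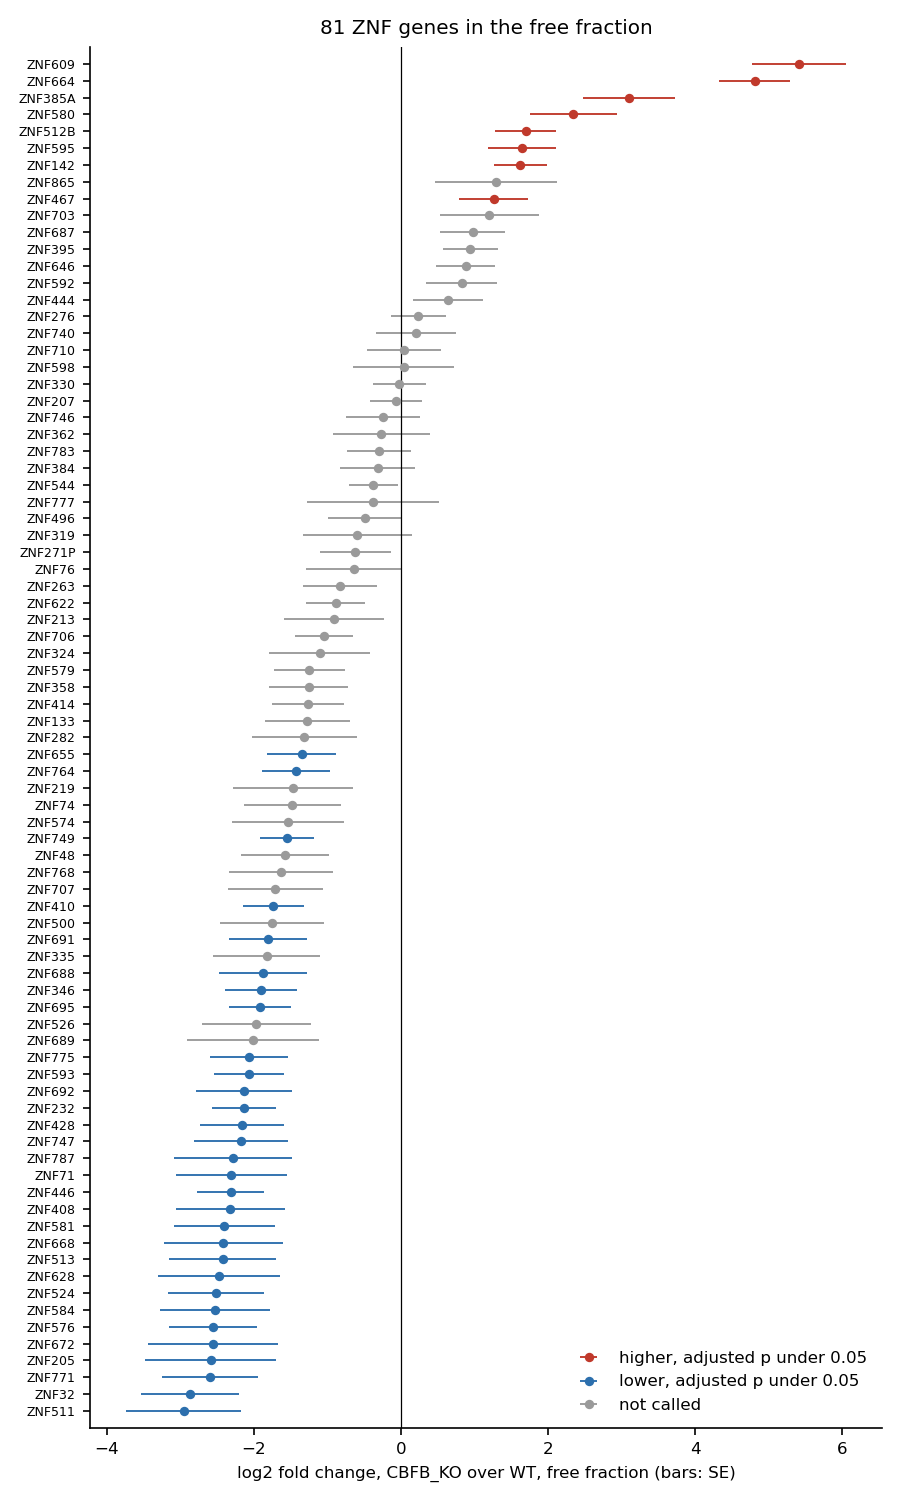
Log2 fold change of CBFB_KO over WT in the free fraction for each of the 81 ZNF genes, ranked, with bars of 1 SE and colors for the call at an adjusted p under 0.05. The 8 higher genes (red) are led by ZNF609 and ZNF664 at 5.41 and 4.81, and the 30 lower genes (blue) reach down to -2.95 for ZNF511.

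ZNF609, a transcription regulator that binds the cohesin loader in neural cells and whose locus also gives a circular RNA, showed the largest increase. Its levels, in CPM scaled by TMM (counts scaled to library size with a correction for composition), were 3.35 and 6.12 in WT free and 188 and 215 in CBFB_KO free. Both knockout libraries lay far above both WT libraries, and the log2 fold change was 5.41 ± 0.64 (SE, adjusted p = 0.000191). In the mono fraction the gene was at 4.65 and 14.0 CPM in WT and 3.90 and 6.51 in CBFB_KO, and in the poly fraction at 9.43 and 13.6 in WT and 8.87 and 8.66 in CBFB_KO. The mono values overlapped and those of poly were 9.43 or above in WT and below that in CBFB_KO, with no call in either. In the free fraction the 2 knockout libraries held 4434 and 2130 counts of this gene.

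ZNF664 was at 3.74 and 5.83 CPM in WT free and at 107 and 161 in CBFB_KO free. The groups did not overlap, and the log2 fold change was 4.81 ± 0.49 (adjusted p = 9.07e-05). Its mono levels, 10.9 and 14.8 CPM in WT and 16.3 and 10.5 in CBFB_KO, overlapped. The gene overlaps RFLNA on the same strand in GENCODE 29, so the counts may hold reads of both.

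ZNF385A, an RNA-binding zinc finger protein that acts with p53, was at 14.5 and 30.2 CPM in WT free and 177 and 205 in CBFB_KO free. It rose by 3.10 ± 0.62 on the log2 scale (adjusted p = 0.00392), again with both knockout libraries above both WT libraries. ZNF580 was at 44.4 and 10.0 CPM in WT free and 148 and 128 in CBFB_KO free, a log2 fold change of 2.34 ± 0.59 (adjusted p = 0.0109). Its neighbor ZNF581, which overlaps it on the same strand, went the other way, from 64.8 and 33.4 CPM to 15.9 and 2.43 (log2 fold change -2.40 ± 0.68, adjusted p = 0.0183). How reads of the shared bases were divided between this pair was set by the quantification.

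ZNF512B was at 3.44 and 5.32 CPM in WT free and 18.2 and 10.1 in CBFB_KO free (log2 fold change 1.70 ± 0.41, adjusted p = 0.00952). The other 3 higher members were ZNF595 with 1.65 ± 0.46, ZNF142 with 1.63 ± 0.36 and ZNF467 with 1.26 ± 0.47, the last named after its values were seen. With library sizes not corrected by TMM, 6 of the 8 were no longer called: ZNF385A (1.35), ZNF580 (0.74), ZNF512B (0.13) and ZNF142 (0.0092) kept their sign, whereas ZNF467 (-0.45) and ZNF595 (-0.29) turned. Without CBFB_KO replicate 2, the calls of ZNF580 (2.46), ZNF467 (1.25) and ZNF595 (0.76) were lost. Fitted on the free libraries alone, ZNF609, ZNF664 and ZNF385A kept their calls and the other 5 lost them. In each of the 8, every pairing of a knockout with a WT library had the same direction. ZNF595 was matched to its symbol through transcript names, because its gene identifier is retired.

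Among the 30 lower members, ZNF511 fell most. It was at 206 and 74.6 CPM in WT free and 32.0 and 4.05 in CBFB_KO free, a log2 fold change of -2.95 ± 0.78 (adjusted p = 0.0137). In the mono fraction the same gene was at 245 and 208 CPM in WT and 254 and 290 in CBFB_KO, a difference that was not called. ZNF32 was at 46.4 and 15.6 CPM in WT free and 6.84 and 1.42 in CBFB_KO free (log2 fold change -2.87 ± 0.67, adjusted p = 0.0077).

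ZNF771 was at 18.3 and 7.45 CPM in WT free and 3.36 and 0.708 in CBFB_KO free (log2 fold change -2.59 ± 0.65, adjusted p = 0.0109). ZNF205 was at 36.7 and 48.5 CPM in WT and 13.1 and 0.708 in CBFB_KO (-2.59 ± 0.88, adjusted p = 0.0363). ZNF672 was at 35.3 and 92.3 CPM in WT and 19.1 and 2.33 in CBFB_KO (-2.55 ± 0.89, adjusted p = 0.0384). ZNF771 would be below the minimum without the WT free libraries, so it was a member only through the group where it was high. The same held for ZNF446, ZNF764 and ZNF775. ZNF324 and ZNF703 would also be below the minimum without WT free, but WT free was not their highest group. The mean of ZNF324 was 7.50 CPM in WT free and 9.93 in WT poly. That of ZNF703 was 13.8 CPM in WT free and 31.7 in CBFB_KO free. ZNF324, ZNF446 and ZNF764 would also be below the minimum without WT poly. In ZNF446, ZNF764, ZNF771 and ZNF775 every pairing was lower in CBFB_KO free, so their falls are not independent of how members were chosen. In ZNF511, ZNF32, ZNF771, ZNF205 and ZNF672 the groups did not overlap. Replicate 2 of the knockout was the lowest library in each, and it held 7 to 40.1 counts. Without replicate 2 of the knockout, in all 3 fractions, the log2 fold changes were -2.12, -2.17, -1.93, -1.69 and -1.73 in the order named here, and none of the 5 passed the test (adjusted p 0.0777 to 0.189).

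The nuclear RNAs MALAT1 and NEAT1 were higher in CBFB_KO free than in WT free. MALAT1 was at 4.64 and 4.24 CPM in WT free and 14.5 and 80.6 in CBFB_KO free (log2 fold change 3.42 ± 0.77, adjusted p = 0.00672). NEAT1 was at 7.11 and 4.78 CPM in WT free and 35.2 and 47.8 in CBFB_KO free (2.80 ± 0.65, adjusted p = 0.00765). In mono, NEAT1 was at 12.9 and 51.8 CPM in WT and 11.8 and 22.5 in CBFB_KO, so it was not limited to the free fraction. The third gene of this list, KCNQ1OT1, was at or under 0.141 CPM in every library. The 7 basal markers summed to 2840 and 3089 CPM in WT free and 5044 and 2595 in CBFB_KO free, and they differed in direction. EGFR went from 10.7 and 7.83 to 284 and 365 CPM, TP63 from 3.67 and 4.54 to 112 and 237, and KRT17 from 1540 and 1152 to 651 and 78.2. The part of these shifts, and of the mitochondrial share, in the values of the ZNF genes was not tested, and in bulk fractions fewer molecules per cell and fewer contributing cells cannot be told apart.

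**Figure D3:**
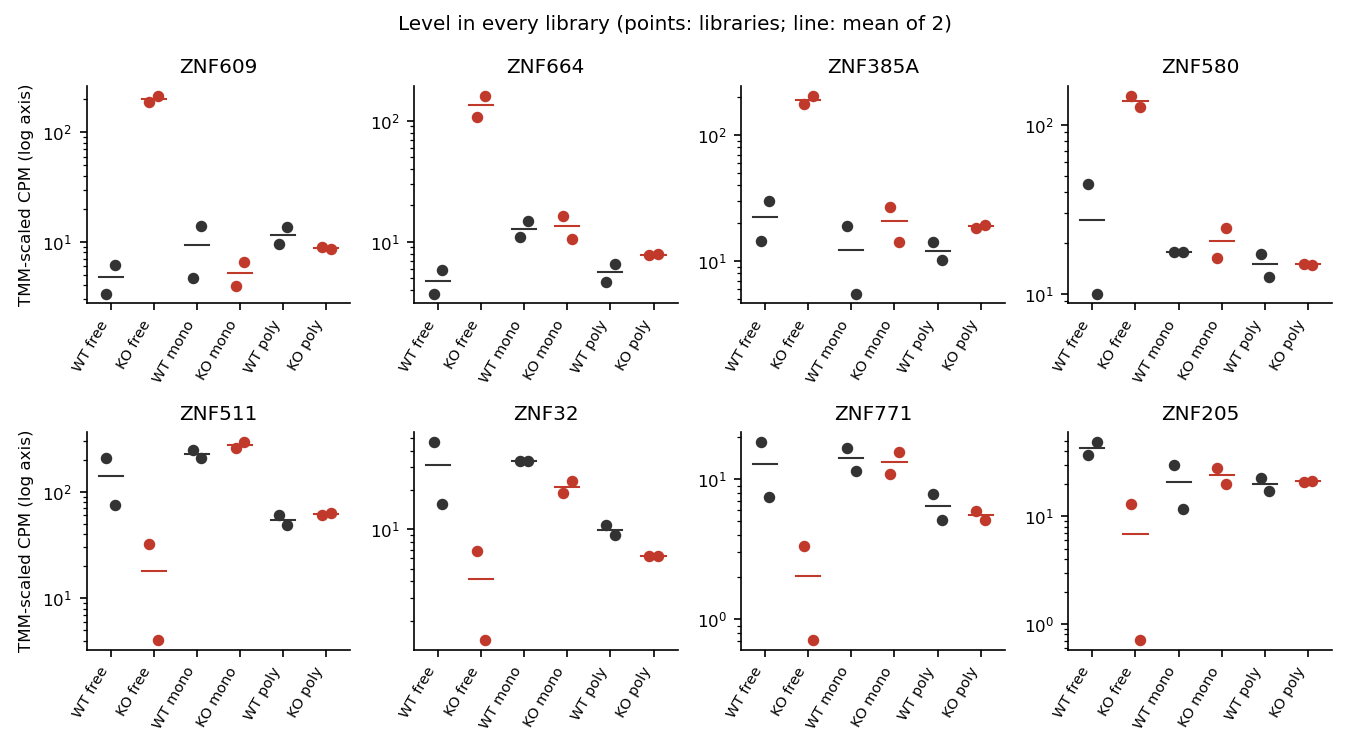
TMM-scaled CPM on a log axis in every library (points) with the mean of 2 (lines) for 4 members higher and 4 lower in the CBFB_KO free fraction, with WT in black and CBFB_KO in red. The CBFB_KO free libraries of ZNF609 lie at 188 and 215 and those of ZNF511 at 32.0 and 4.05, outside the WT free libraries in each of the 8 panels.

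In the mono and poly fractions no member passed the test between the genotypes. Of 81 members, 0 passed the test in mono, where 0.147% of all genes did, and 0 in poly, where 0.19% did (edgeR). At an unadjusted p under 0.05 (edgeR) the count was 0 of 81 in each fraction, and DESeq2 also called 0. Over all genes 712 of 16275 in mono and 451 in poly were under that p. Of the 6264 genes at the same minimum count, 125 in mono and 137 in poly were. The members' log2 fold changes ran from -0.85 to 0.75 in mono and from -0.67 to 0.65 in poly, with medians of 0.02 and -0.10. Both CBFB_KO poly libraries lay below both WT poly libraries in 29 members and above in 13, where 25% and 24.7% of all genes did so. In mono these counts were 9 and 6, where 12.9% and 17% of all genes did so.

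**Figure D4:**
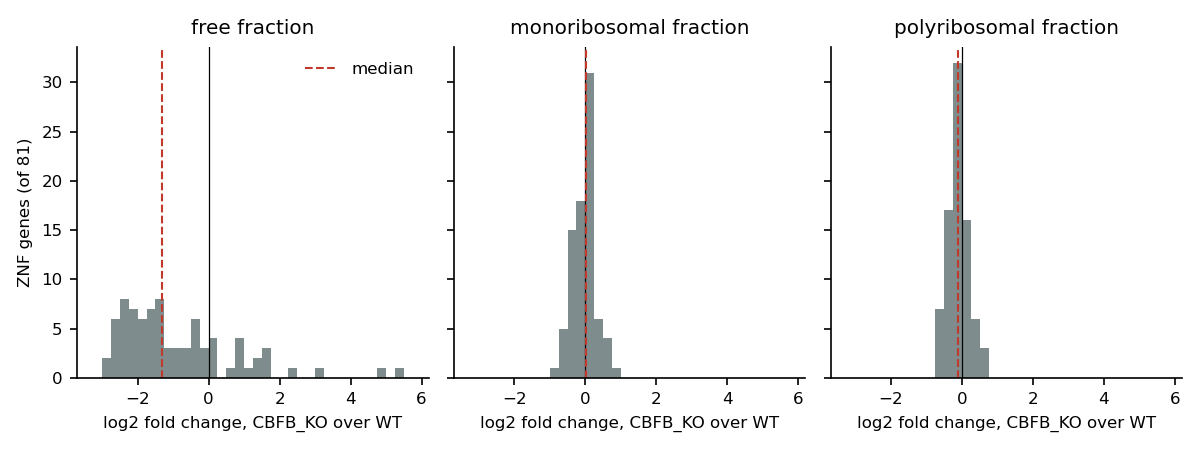
Histograms of the log2 fold change of CBFB_KO over WT for the 81 ZNF genes in the free, mono and poly fractions, with a dashed line at the median. The free values spread from -2.95 to 5.41 around a median of -1.31, whereas the poly values stay between -0.67 and 0.65.

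The ratio of poly to free RNA in CBFB_KO over that in WT (the interaction of genotype and fraction) was tested next. Each library was scaled on its own, so levels are relative to the other RNAs of the fraction. The share of an mRNA that carries ribosomes cannot be read from them. The ratio was higher in 6 members and lower in 4, against 4.1% and 14.3% of all genes, and among genes at the same minimum 7.90% and 13.6%. The median was 1.29 in members, 0.78 in genes at the minimum and -0.10 in all genes. The 4 lower members were ZNF609 at -5.81 ± 0.80 (adjusted p = 0.00103), ZNF664 at -4.34 ± 0.61 (adjusted p = 0.00112), ZNF512B at -2.32 ± 0.57 (adjusted p = 0.0196) and ZNF142 at -1.61 ± 0.50 (adjusted p = 0.0459). This comparison shares the free libraries with the one above, and the poly levels of these 4 genes did not pass the test between genotypes. ZNF512B was at 33.4 and 27.2 CPM in WT poly and lower, at 19.6 and 19.9, in CBFB_KO poly. ZNF664 was at 4.65 and 6.62 CPM in WT poly and higher, at 7.73 and 7.90, in CBFB_KO poly. Neither overlapped between genotypes, nor did ZNF609, while the poly values of ZNF142 did.

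Of the higher members, ZNF576 had a log2 difference of 2.84 ± 0.81 (adjusted p = 0.0331). It was at 34.9 and 25.1 CPM in WT free, 8.37 and 1.62 in CBFB_KO free, 15.8 and 12.9 in WT poly and 17.8 and 17.4 in CBFB_KO poly. The knockout was thus lower in free and higher in poly with no overlap in either, and the poly difference, 0.29 on the log2 scale, was not called. ZNF593, a ribosome assembly factor, was at 48.6 and 31.4 CPM in WT free and 13.2 and 5.76 in CBFB_KO free, with poly levels of 57.1 and 46.1 in WT and 56.7 and 59.5 in CBFB_KO (2.23 ± 0.65, adjusted p = 0.0364). ZNF232 (2.05 ± 0.59), ZNF695 (1.94 ± 0.57) and ZNF410 (1.90 ± 0.57) followed, with ZNF749 at 1.87 ± 0.50. The ratio of mono to free, which rests on the same free libraries, was higher in 7 members and lower in 3, against 4.87% and 14.2% of all genes. With the CBFB_KO poly pair as 1 sample 0 members were higher and 2 lower in the poly to free ratio, and the same counts were found without CBFB_KO replicate 2. Without TMM 23 were higher and 2 lower.

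The change of the poly to mono ratio between the genotypes passed the test in no member. It was called in 0 of 81 and in 0% of all genes tested (edgeR, and 0 members by DESeq2), and 0 members were at an unadjusted p under 0.05. Of all 16275 genes 164 were under that p, and of the 6264 at the same minimum 7 were. The ratios in WT and in CBFB_KO, which share no library, had a Pearson r of 0.98 and a Spearman rho of 0.97 across the 81 members, and 0.98 for each over the 6264 genes at the same minimum. These coefficients are across genes, which are not independent replicates.

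In WT, 3 members were higher in poly than in mono and 9 lower, against 11% and 9.68% of all genes and 17.6% and 14.5% of those at the same minimum. ZNF622, a factor of late ribosome assembly, was at 23.9 and 24.8 CPM in poly and 5.13 and 5.32 in mono (log2 ratio 2.22 ± 0.40, adjusted p = 0.00495). In CBFB_KO it was at 19.8 and 20.9 CPM in poly and 3.57 and 5.54 in mono (2.16 ± 0.40, adjusted p = 0.00774), with no overlap in either genotype. ZNF207 (BuGZ), a spindle and splicing factor, had ratios of 1.62 ± 0.36 and 1.73 ± 0.37, and ZNF395 of 1.51 ± 0.38 and 1.40 ± 0.37 in WT and CBFB_KO.

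The lowest ratio was that of the pseudogene ZNF271P, named here after its values were seen. It was at 4.99 and 6.82 CPM in WT poly and 52.1 and 70.1 in WT mono (-3.37 ± 0.52, adjusted p = 0.00365), and at 8.45 and 8.57 in CBFB_KO poly and 65.2 and 108 in CBFB_KO mono (-3.34 ± 0.52, adjusted p = 0.00608). ZNF749 had ratios of -2.78 ± 0.37 and -2.95 ± 0.37, and ZNF706, one of the shortest members with a transcript of 501 bases, of -1.53 ± 0.39 and -1.43 ± 0.39. Of the 9 lower members, 4 had the KRAB motif and 4 did not, and ZNF271P has no coding transcript to search. Of the 3 higher ones 0 had it, where 19 of the 80 members with a coding transcript did. Without WT replicate 2 the WT counts were 0 higher and 0 lower, and without WT replicate 1 they were 1 and 1.

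**Figure D5:**
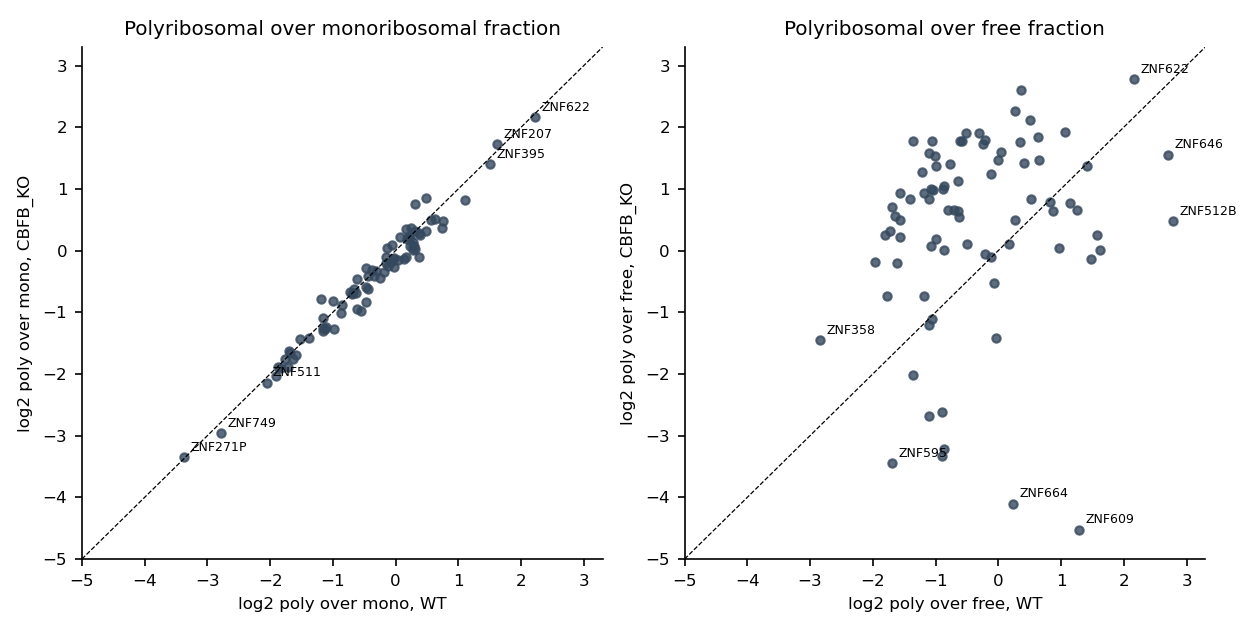
Log2 ratio of poly over mono (left) and of poly over free (right) in WT (horizontal) against CBFB_KO (vertical), with 1 point per ZNF gene and a dashed line where both are equal. On the left the 81 points follow the line, from ZNF271P at -3.37 and -3.34 to ZNF622 at 2.22 and 2.16, and on the right ZNF609 and ZNF664 lie far below it.

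Within WT, 7 members were higher in poly than in free and 7 lower, against 14% and 7.99% of all genes, and 21.2% and 8.89% of those at the same minimum. ZNF512B was at 33.4 and 27.2 CPM in WT poly and 3.44 and 5.32 in WT free (log2 ratio 2.79 ± 0.43, adjusted p = 0.00231). ZNF646 was at 16 and 12 CPM in poly and 2.13 and 2.19 in free (2.70 ± 0.41, adjusted p = 0.0022). ZNF646 would be below the minimum without the WT poly libraries, so it was a member only through libraries where it was high. Both genes lay higher in each poly library than in each free library. ZNF622 (2.16 ± 0.40), ZNF395 (1.62 ± 0.38) and ZNF687 (1.57 ± 0.45) followed.

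At the other end, ZNF358 was at 7.30 and 5.27 CPM in WT poly and 53.4 and 36.3 in WT free (-2.83 ± 0.56, adjusted p = 0.00627), and it shares 15.4% of its 30-base words with an overlapping gene. ZNF655 (-1.96 ± 0.47), ZNF579 (-1.77 ± 0.48), ZNF595 (-1.70 ± 0.46) and ZNF691 (-1.62 ± 0.53) were also lower in poly, each with no overlap. Without WT replicate 1, 0 members were lower and 3 higher, and without WT replicate 2, 2 were lower and 7 higher. Without TMM 6 members were higher and 0 lower in WT. In CBFB_KO, 9 members were higher and 8 lower in poly than in free, against 14.6% and 16.7% of all genes and 32.5% and 12.8% of those at the same minimum, and without TMM 63 and 2. From free to mono, 4 members were higher and 1 lower in WT, against 5.55% and 1.43%, and 29 and 11 in CBFB_KO, against 20.3% and 23%. Of the genes at the same minimum, 9.24% and 1.28% were called in WT and 37.5% and 18.4% in CBFB_KO, where the members' shares were 35.8% and 13.6%.

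By role, the list for RNA and ribosomes had 6 of its 10 genes among the members. In CBFB_KO free, 1 of the 6 was higher (ZNF385A) and 2 were lower: ZNF593 and ZNF346, a protein that binds double-stranded RNA (-1.90 ± 0.49, adjusted p = 0.012). ZNF598, the ubiquitin ligase that senses collided ribosomes, was at 11.8 and 55.0 CPM in WT free and 46.0 and 22.7 in CBFB_KO free, which overlapped (0.04 ± 0.69). Its poly level was 80.8 and 66.7 CPM in WT and 59.0 and 57.9 in CBFB_KO, a log2 difference of -0.34 that was not called.

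Of 8 genes on the list for breast and epithelium, ZNF703, a luminal breast cancer oncogene, was the only one above the minimum. It was at 3.75 and 23.8 CPM in WT free and 36.9 and 26.4 in CBFB_KO free (1.20 ± 0.68, not called). Of 22 genes on the chromatin and transcription list 7 were members, and ZNF609 was the 1 called in free, while ZNF219, ZNF592, ZNF76, ZNF335 and ZNF384 were not called in free, mono or poly. ZNF687 was not called there either. The KRAB silencing list had 2 of 9 genes among the members, ZNF282 and ZNF263, with 0 called between genotypes.

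The members were also split by the KRAB motif. In CBFB_KO free, 1 of 19 members with it was higher and 8 lower, with a median of -1.48, and 7 of 61 without it were higher and 22 lower, with a median of -1.27. The corepressor genes, which are not ZNF genes, had 8 of 15 higher and 0 lower in CBFB_KO free, where 24.2% and 18.1% of all genes were, with a median of 1.20. Of the 15, 6 were under the minimum of 500 counts that every member met. In mono and poly 0 of 15 were called. TRIM28, to which KRAB domains bind, was at 57.6 and 108 CPM in WT free and 82.1 and 14.8 in CBFB_KO free, and did not pass the test (-0.77 ± 0.63). Of 11 ZBTB, ZSCAN, ZKSCAN and ZFP genes at the same minimum, 3 were higher and 5 lower in free and 0 were called in mono or poly.

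Transcript length went with the changes in the free fraction. The 8 higher members had a median longest coding transcript of 3569 bases, the 30 lower ones of 2102 and the 42 others with a transcript of 3080. Across 80 members, the log2 fold change in free had a Spearman rho of 0.44 with transcript length (Pearson r 0.42), and across 13047 tested genes with a coding transcript the rho was 0.46. With GC content the rho was -0.12 in members and -0.46 over those genes. The points share the 4 free libraries, and genes are not independent replicates.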

How the data were processed

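The submitters' processing notes name Trimmomatic, STAR, RSEM and the build hg19, without versions. The deposited expected counts are the authors' RSEM estimates per gene, not normalized. Reads of near-identical or overlapping genes are divided by RSEM's model. The authors also deposited TPM, which RSEM divides by gene length and scales to a fixed library sum, and it was used only to rank genes. Symbols were matched by gene identifier for 49995 of 56632 genes and by transcript identifier for 582 more.

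Expected counts were rounded and fitted with edgeR 4.0.16 (quasi-likelihood, TMM, filterByExpr, a mean for each of 6 groups, 12 libraries, 16275 genes, all 81 members included; R 4.3.3), with Benjamini-Hochberg adjustment over all genes and a threshold of 0.05. The SE is the log2 fold change divided by the square root of F, in size. DESeq2 1.42.0 was an alternative. In simulated data on 16275 genes, edgeR recovered 54% of 4-fold and 100% of 16-fold changes in CBFB_KO free, with 5.52% of its calls false. For the poly to free interaction it recovered 12% and 83%. The simulation gave every group the same spread and changed only 100 genes at each fold. In the data the mean chi-square per gene ran from 2.21 in CBFB_KO poly to 902 in WT free. The simulated rates therefore cannot be carried over to the calls of this report. Totals of 41050325 to 63886726 counts put the floor of 3 counts at 4.70e-06 to 7.31e-06 percent; this covers counting error only. Features came from GENCODE 29 (GRCh38), and no coordinate of hg19 was used. Pairings used log2(CPM + 0.5).

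The members, lists and tests were chosen with earlier results of these data known. Named members were, for the free fraction, the poly to free interaction and poly over free in WT, the 5 called with the largest change in each direction and the same sign in all pairings; members called in mono, poly or the poly to mono interaction; the 5 of highest TPM; members on a role list; and those beside the minimum. Replicate numbers were not used as pairs in the main fit, and the labels do not say what libraries of the same number share. The replicate differences of the 6 groups correlated from -0.39 (WT free with CBFB_KO mono) to 0.51 (WT mono with CBFB_KO mono). WT mono with WT poly was at 0.40, so shared replicate effects were not excluded. A replicate block was fitted as an alternative. Alternatives are in the closing section.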

Additional observations from a re-analysis of the deposited data

Results flagged for a closer look

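The ratio of poly to free RNA differed between CBFB_KO and WT (interaction test, edgeR) in 10 members. On the log2 scale the difference was -5.81 for ZNF609, -4.34 for ZNF664, -2.32 for ZNF512B, -1.61 for ZNF142, 1.87 for ZNF749, 1.90 for ZNF410, 1.94 for ZNF695, 2.05 for ZNF232, 2.23 for ZNF593 and 2.84 for ZNF576. The ratio of mono to free RNA also differed in 10 members. It was -6.26 for ZNF609, -4.74 for ZNF664, -2.04 for ZNF512B, 1.86 for ZNF410, 1.99 for ZNF446, 2.02 for ZNF695, 2.05 for ZNF749, 2.17 for ZNF593, 2.18 for ZNF232 and 2.76 for ZNF576. Both ratios rest on the same free libraries. ZNF446 overlaps ZNF324 on the same strand, and ZNF410 overlaps PTGR2. ZNF446 would also be below the minimum without the WT free or without the WT poly libraries.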

How the results depend on the processing

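Of 143 values recomputed for the 13 counts of members, 96 stayed within 1.5 times the count given in the report and 47 moved further. The counts of 0 for mono, poly and the poly to mono interaction held under every alternative. Their values are among the 96, and the 47 that moved all belong to counts above 0. The counts above 0 were thus less stable than the 96 of 143 shows. With TMM, the median log2 fold change in free was -0.82 in the 6264 genes at the same minimum, closer to that of members. Their median without TMM was not computed. Library sizes without TMM factors moved the median of all genes in CBFB_KO free from 0.04 to -1.57 and that of members from -1.31 to -2.87. Members thus lay 1.35 below all genes tested with TMM and 1.31 without it. The members higher and lower were then 2 and 59 in free, 23 and 2 for the poly to free interaction and 63 and 2 for poly over free in CBFB_KO, 0 were lower for poly over free and 2 for poly over mono in WT, and the ZNF142 interaction turned to 0.022. Under DESeq2, 27 were higher and 9 lower for the interaction, 19 lower for poly over free in WT, 21 higher in CBFB_KO and 17 lower for poly over mono in WT. Without a filter on low counts these were 27 higher for the interaction, 13 lower for poly over free in WT and 25 higher in CBFB_KO.

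With the CBFB_KO poly pair as 1 sample, 0 were higher and 2 lower for the interaction, 2 lower for poly over free in WT, 2 higher in CBFB_KO and 5 lower for poly over mono in WT. With only the libraries compared, 3 were higher and 1 lower in free, 1 higher for the interaction, 4 higher for poly over free in WT and 15 lower for poly over mono. A replicate block gave 12 higher for the interaction and 15 higher for poly over free in CBFB_KO. Leaving out the 3 libraries of 1 genotype that share a replicate number, the counts ran from 5 to 10 higher and 0 to 39 lower in free, from 0 to 23 higher and 2 to 6 lower for the interaction, from 3 to 7 higher and 0 to 7 lower for poly over free in WT, from 0 to 20 higher and 2 to 9 lower in CBFB_KO, and from 0 to 3 higher and 0 to 9 lower for poly over mono in WT. Among the named members, the call in free was kept in 84 recomputed values and lost in 26, that of the interaction kept in 59 and lost in 39 besides the 1 that turned, and that of poly over free in WT kept in 85 and lost in 25. The cause of these moves was not tested. Depth limits the CBFB_KO free fraction, where the median member had 311 and 58.5 counts.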
